A study of Mus musculus with 20 samples.

Results

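Krüppel-like factors (KLFs) are zinc finger transcription factors, and 10 of their genes, Klf2, Klf3, Klf4, Klf5, Klf6, Klf7, Klf9, Klf10, Klf11 and Klf13, were followed in DC2 cells. The members were listed with earlier results of these data known, so their counts beside those of all genes are a description. Each of the 10 was found by gene symbol once in both deposited tables, among 21509 protein-coding genes. DC2 is an immortalized line from principal cells of the distal caput of the mouse epididymis, so each value describes 1 line in culture and not the epididymal duct. In the first experiment, 6 libraries came from cells exposed in fibronectin-coated microchannels for 3 hours to fluid flow with a shear stress of 1 dyn/cm2 (flow), and 6 libraries came from cells kept without flow (static). In the second experiment, 4 libraries came from cells transfected with a mix of siRNAs against Ift88, a component of the intraflagellar transport machinery that builds the primary cilium, and 4 libraries from cells with a scrambled control siRNA. The study describes the cells of both siRNA groups as exposed to flow, while the sample labels name only the siRNA. The labels of flow replicate 6 conflict, with flow in the title, FL in the description and static as the treatment. The title was followed, and the changes under flow of Klf4, Klf5, Klf6, Klf7 and Klf10, the comparison of replicate sets, the family shares and the called genes around the factors are also given without this library.

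All KLFs bind GC-rich and CACCC-type DNA through a conserved C-terminal block of zinc fingers, and their N-terminal parts recruit different partners. Klf2, Klf4, Klf5, Klf6 and Klf7 act largely through acetyltransferase coactivators, Klf3 recruits the corepressor CtBP, and Klf9, Klf10, Klf11 and Klf13 bind the Sin3 repressor complex. In blood vessels Klf2 and Klf4 are textbook shear stress genes, induced by laminar flow through the MEK5-ERK5-MEF2 route, and Klf10 and Klf11 are early targets of TGF-beta.

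Levels are given as TPM, the transcript's length-corrected share of each library, and differences as log2 fold changes of TPM + 1. A gene was called when its adjusted p in limma was under 0.05 and its change was over 1.5-fold. Each library summed to 1000000 TPM and had between 15292 and 16682 genes above 0. TPM hold no read totals, so sequencing depth is unknown and no counting error can be given. Markers of the labelled cell type were scarce. The epididymal principal cell markers Aqp9, Crisp1, Lcn5, Lcn8 and Adam7 were below 1 TPM in every library, as were the epithelial gene Epcam and the markers of clear and basal cells. The epithelial genes Cdh1 and Krt8 reached at most 1.73 and 1.17 TPM. Keratin Krt19 lay between 5.32 and 26.0 TPM and keratin Krt18 between 23.2 and 159 TPM. The 5 endothelial markers were below 1 TPM in every library of the flow experiment, with Tie1 and Emcn at 0 throughout. Of 5 immune markers, Cd68 alone was abundant, at 10.1 to 64.0 TPM in the flow experiment, with Adgre1 and Cd3e at 0. The labels do not say whether replicates were separate cultures, so p-values measure the spread between these libraries, which may be technical. In bulk RNA, more RNA per cell and more cells with a transcript cannot be told apart.

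Under flow, Klf6 and Klf10 had the largest increases, with group means 1.92 and 2.41 times those of static cells, Klf4, Klf5 and Klf7 had mean levels 1.36 to 1.52 times as high, and Klf2, Klf3, Klf9, Klf11 and Klf13 had ratios between 0.937 and 1.23. None of the 10 was called in the comparison without pairing, in which 0.105% of 11388 genes were called higher and 0% lower, and 5 members were higher at an unadjusted p under 0.05, against 2.05% of all genes. With the replicate number as a block, 2 of 10 were called higher, Klf6 and Klf10, against 0.597% of genes, and 6 were higher at an unadjusted p under 0.05, against 3.94%. The study's methods name no pairing. The block was added because same-numbered flow and static libraries deviated together in each of the 6 pairs, and 5 of 6 flow libraries matched the static library of their own number best (flow replicate 3 matched static replicate 1). These deviations are from the mean of all 6 libraries of a group, so they include the difference between replicate sets described below. The median log2 fold change was 0.32 over the members and -0.03 over all genes tested.

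**Figure D1:**
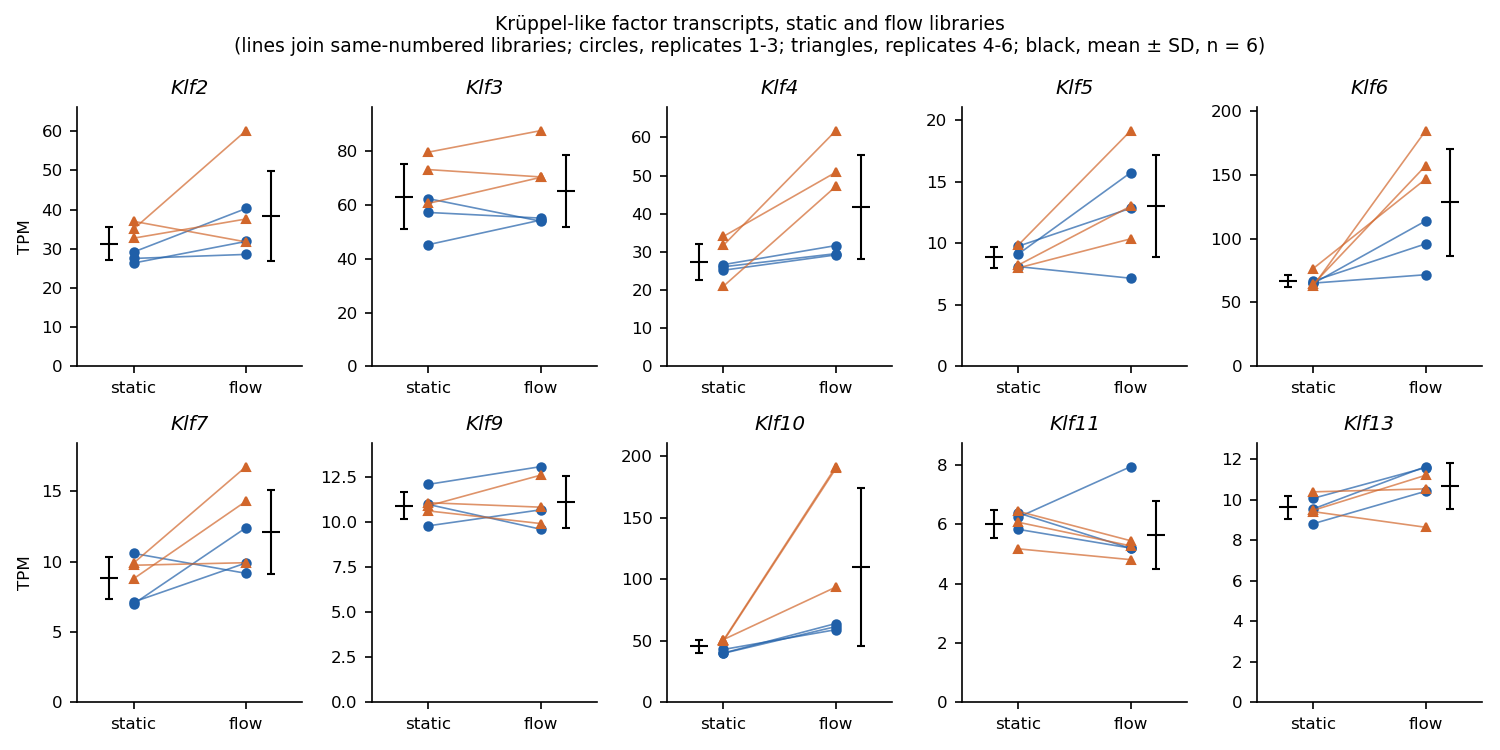
TPM of each Krüppel-like factor (vertical axis, from 0) in the 6 static and 6 flow libraries, with lines joining same-numbered libraries, circles for replicates 1 to 3, triangles for replicates 4 to 6, and mean ± SD in black. Klf4, Klf6 and Klf10 are higher under flow on all 6 lines, and Klf10 is the only factor whose groups do not overlap.

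Klf6 (ENSMUSG00000000078, chr13:5861482-5870394, + strand, GRCm38) encodes a widely expressed factor of the activator group that is induced early after injury and growth stimuli. Its static level was 62.9 TPM at the lowest, 65.0 at the median and 76.6 at the highest. Under flow it was 71.7 at the lowest, 130.2 at the median and 184 at the highest. Flow replicate 2 was the low library and lay inside the static range, and the other 5 flow libraries were above every static library. The mean was 128 ± 41.9 TPM under flow and 66.7 ± 4.97 in static cells (SD, n = 6 each), a log2 fold change of 0.87 (SE 0.18), higher in 6 of 6 pairs. The adjusted p was 0.0967 without the block and 0.0273 with it. Without flow replicate 2 the unblocked change was 1.02, with an adjusted p of 0.00233, and without flow replicate 6 it was 0.79, with an adjusted p of 0.198.

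Klf10 (ENSMUSG00000037465, chr15:38291463-38300706, - strand), also called TGF-beta inducible early gene, encodes a repressor of cell growth genes. Static levels were 39.9 TPM at the lowest, 46.4 at the median and 51.0 at the highest. Flow levels were 59.1 at the lowest, 78.9 at the median and 192 at the highest. Every flow library was above every static library, which held for 0.492% of all genes tested, and flow replicates 5 and 6, at 190.0 and 192 TPM, stood well above the other 4. The mean was 109.99 ± 63.8 TPM under flow and 45.7 ± 5.29 in static cells (SD, n = 6 each), and the log2 fold change was 1.07 (SE 0.28). The adjusted p was 0.318 without the block and 0.0344 with it. Leaving out 1 library at a time never brought a call for Klf10 in the unblocked comparison (adjusted p 0.0617 to 0.673 over 12 fits), and without flow replicate 6 the change was 0.87. With the block and without pair 6, neither Klf10 (adjusted p 0.0793) nor Klf6 (0.0862) was called.

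Klf4 (ENSMUSG00000003032, chr4:55527143-55532466, - strand), a regulator of epithelial differentiation and one of the endothelial shear stress factors, was between 21.0 and 34.0 TPM in static cells with a median of 26.4, and between 29.2 and 61.8 TPM under flow with a median of 39.4. The groups overlapped through flow replicates 1, 2 and 3, at 29.2 to 31.7 TPM, whereas flow replicates 4, 5 and 6 exceeded every static library. Means were 41.7 ± 13.6 and 27.5 ± 4.71 TPM (SD, n = 6 each), and the log2 fold change of 0.54 (SE 0.18) did not pass the test (adjusted p 0.817, with the block 0.113), and was 0.50 without flow replicate 6. Flow was nevertheless the higher side in all 6 pairs. Klf4, Klf6 and Klf10 were the 3 members higher in every pair, which 1.98% of all genes were.

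Klf2 (ENSMUSG00000055148, chr8:72319033-72321656, + strand) is the factor most tied to laminar shear in endothelium. In DC2 cells its level was 26.4 to 37.0 TPM in static libraries and 28.6 to 60.1 TPM under flow, with medians of 30.9 and 34.7. Flow replicate 4, at 60.1 TPM, lay far above the other flow libraries, and the rest of the flow range overlapped the static range. The log2 fold change was 0.25, with a 95% interval from -0.08 to 0.58 and, with the block, from 0.02 to 0.49 (adjusted p 0.998 and 0.415). Without flow replicate 4 the change was 0.12. A difference as large as the estimate for Klf6 was outside the interval of both fits.

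Klf5 (ENSMUSG00000005148, chr14:99298691-99315036, + strand) drives proliferation in epithelia. It ranged from 8.01 to 9.87 TPM in static cells and from 7.17 to 19.2 TPM under flow, higher in 5 of 6 pairs, with means of 8.86 ± 0.847 and 13.1 ± 4.16 TPM (SD, n = 6 each). Flow replicate 2 was the lowest library of all 12, and the other 5 flow libraries were above the static ones. Its log2 fold change of 0.46 was not called (adjusted p 0.998, with the block 0.191), and without flow replicate 2 it was 0.61 and was called (adjusted p 0.0483), while without flow replicate 6 it was 0.35. Klf7 (ENSMUSG00000025959, chr1:64029447-64122282, - strand), known from neurogenesis, ranged from 6.999 to 10.6 TPM in static cells and from 9.17 to 16.8 TPM under flow, with a log2 fold change of 0.39 (adjusted p 0.998, with the block 0.304, and 0.30 without flow replicate 6), and pair 2 was again the pair with a lower value under flow. Exons of Klf7 overlap the non-coding genes Gm26649 and Gm13748 on the opposite strand. Whether the library's strand was used in the quantification is not given in the sources used here.

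Klf3 (ENSMUSG00000029178, chr5:64803388-64832901, + strand), the CtBP-recruiting repressor, was among the most abundant members. Its level was 45.2 to 79.5 TPM in static cells and 53.9 to 87.5 TPM under flow, higher in 3 of 6 pairs, with a log2 fold change of 0.05 (95% interval -0.26 to 0.36). Exons of Klf3 overlap Gm20033 on the opposite strand.

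The other 3 Sin3-binding members were not called in either fit. Klf11 (ENSMUSG00000020653, chr12:24651274-24662789, + strand), the closest relative of Klf10, was lower under flow in 5 of 6 pairs, from 5.17 to 6.43 TPM in static cells and from 4.80 to 7.94 TPM under flow, and its log2 fold change of -0.09 had an interval from -0.33 to 0.15. Klf9 (ENSMUSG00000033863, chr19:23141226-23168134, + strand), a glucocorticoid and thyroid hormone target, stayed between 9.61 and 13.1 TPM in all 12 libraries, with a change of 0.02 (-0.18 to 0.22). Klf13 (ENSMUSG00000052040, chr7:63886351-63938915, - strand), known as a regulator of the chemokine RANTES in T cells, was 8.82 to 10.4 TPM in static cells and 8.64 to 11.6 TPM under flow, higher in 5 of 6 pairs by a mean of 0.13 (-0.05 to 0.32). For these 3 genes and Klf3 the intervals exclude a 1.5-fold change in either direction.

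**Figure D2:**
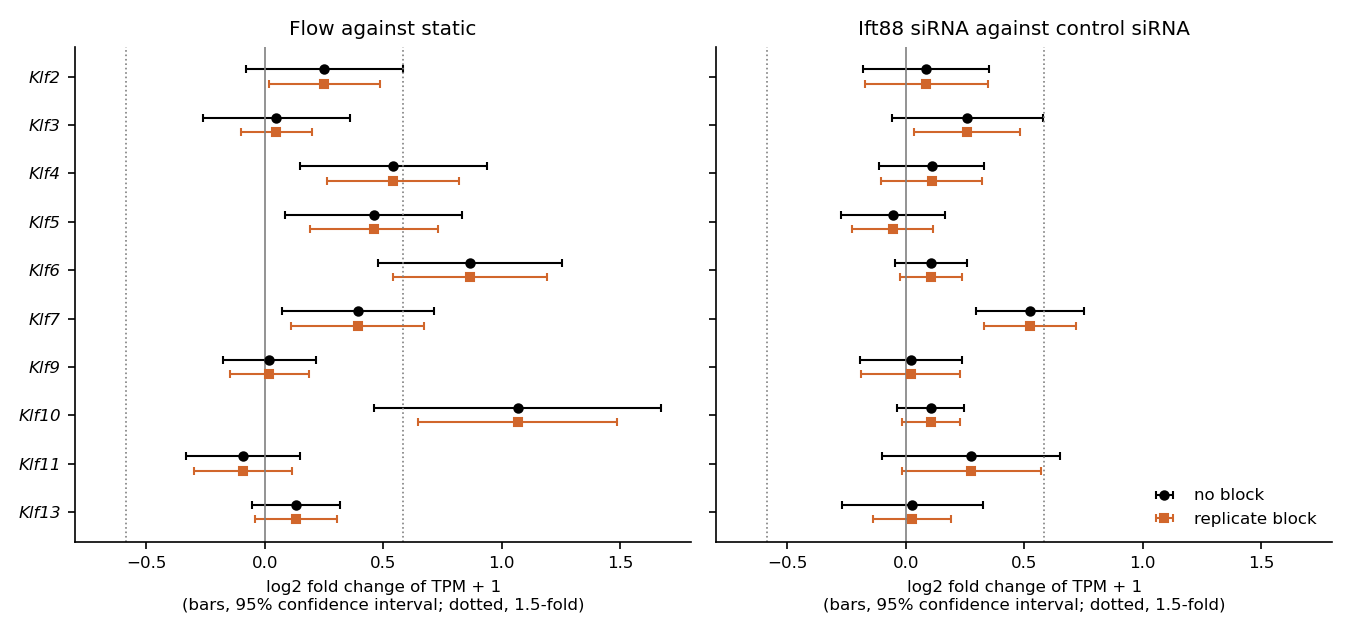
Log2 fold change of TPM + 1 with its 95% confidence interval (horizontal axis) for each factor, flow against static on the left and Ift88 siRNA against control siRNA on the right, from limma without (black circles) and with (orange squares) the replicate block, with dotted lines at 1.5-fold. Under flow the intervals of Klf4, Klf5, Klf6, Klf7 and Klf10 lie above 0 in both fits, and under siRNA those of Klf7 do.

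The flow change was also compared between replicates 1 to 3 and replicates 4 to 6. These sets were chosen because the first principal component of the same 12 libraries (34.4% of the variance) separated them in both groups. Intervals and p-values of the difference therefore describe a split taken from these data. The labels do not name these sets. Klf10 rose by 0.45 to 0.66 within pairs 1 to 3 and by 0.86 to 1.91 within pairs 4 to 6 (differences in log2(TPM + 1)). Klf6 rose by 0.14 to 0.80 and by 0.93 to 1.54, and the differences of Klf4 were 0.17 to 0.24 and 0.57 to 1.13. For these 3 members the smallest change in the later set was larger than the largest change in the earlier set. The share of all genes with this pattern was not computed, so it is only a description. The interaction term of the blocked model gave a difference of 0.98 for Klf10 (95% interval 0.45 to 1.52), 0.76 for Klf6 (0.34 to 1.18) and 0.67 for Klf4 (0.33 to 1.01). Without pair 6 these differences were 0.81, 0.75 and 0.55. After adjustment over 11388 genes none of the 10 members passed (adjusted p 0.410, 0.410 and 0.320), while 0.158% of genes passed with a larger effect in replicates 4 to 6. Unadjusted, 3 of 10 members had p under 0.05 with the larger effect in replicates 4 to 6, against 1.77% of genes.

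Within replicates 4 to 6 alone, Klf6 was called, from 67.9 ± 7.53 TPM in static cells to a mean of 163 TPM under flow (log2 fold change 1.25, adjusted p 0.00369), 1 of 10 members against 0.49% of genes, and was still called without flow replicate 6 (1.27, adjusted p 0.0239). Klf10 reached 158 TPM from 50.4 ± 0.630 (1.56, adjusted p 0.0545), and its change was 1.39 without flow replicate 6. Within replicates 1 to 3 alone no member was called, and 0.0443% of genes were. There Klf6 went from 65.6 ± 1.00 to 93.8 TPM (0.48) and Klf10 from 41.0 ± 1.74 to 61.6 TPM (0.58). All flow libraries were above all static libraries of the set for 4 of 10 members in replicates 1 to 3 (Klf4, Klf6, Klf10 and Klf13), against 3.08% of genes, and for 5 in replicates 4 to 6 (Klf4, Klf5, Klf6, Klf7 and Klf10), against 3.93%. The mean change of Klf2 was 0.26 in the first set and 0.25 in the second, but its pairs 4 to 6 ranged from -0.21 to 0.76, and the difference between sets was -0.27 without pair 4 and 0.22 without pair 6. The difference between sets of Klf13, -0.18, was in the other direction (adjusted p 1.00).

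**Figure D3:**
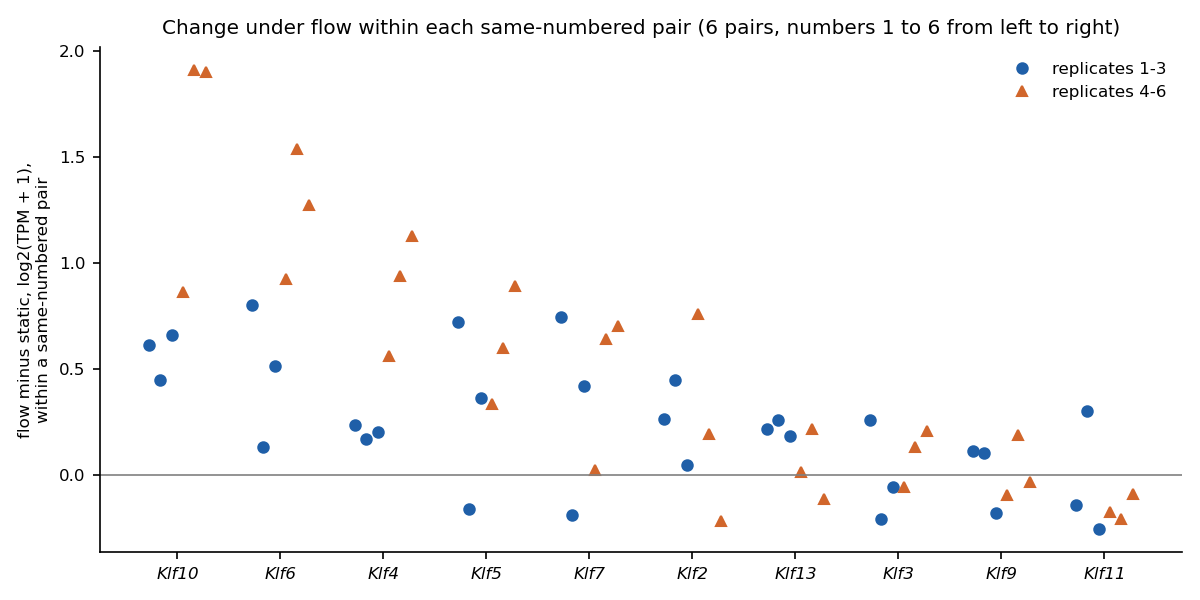
Flow minus static difference in log2(TPM + 1) within each same-numbered pair (vertical axis) for the 10 factors, with blue circles for pairs 1 to 3 and orange triangles for pairs 4 to 6. For Klf10, Klf6 and Klf4 all 6 points lie above 0 and the 3 triangles lie above the 3 circles, whereas the points of Klf3, Klf9 and Klf11 fall on both sides of 0.

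The same values can be read as shares of the family pool. The 17 Klf genes of the table summed to 316 ± 26.6 TPM in static cells and 479 ± 134 TPM under flow (SD, n = 6 each). Klf6 made up 21.2 ± 1.51% of the pool in static cells and 26.5 ± 3.02% under flow, Klf10 14.4 ± 0.938% and 21.5 ± 6.80%, and Klf3 19.8 ± 2.49% and 13.9 ± 1.44%. Without flow replicate 6 the flow shares were 26.6 ± 3.36% for Klf6, 19.5 ± 5.22% for Klf10 and 14.3 ± 1.02% for Klf3 (SD, n = 5). These shares are a description of the pool, with no test. In static cells the order of mean levels was Klf6, Klf3, Klf10, Klf2, Klf4, Klf9, Klf13, Klf5, Klf7 and Klf11. Neighbours in that order overlapped in range except at 3 steps, from Klf10 to Klf2, from Klf4 to Klf9 and from Klf7 to Klf11. Under flow Klf10 moved to the second place, Klf4 passed Klf2, and Klf5 and Klf7 passed Klf9 and Klf13. The ranges of Klf4 and Klf2 overlapped, as did those of the last 4 genes. Of the 7 other Klf genes, Klf16 was at 31.3 to 46.8 TPM in the flow experiment, Klf15 at 0.616 to 2.42 TPM, and Klf1, Klf8, Klf12, Klf14 and Klf17 were below 1 TPM in each library.

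KLF genes are related in sequence, and reads from shared stretches could be split between them. Over all annotated transcripts (GENCODE M21), the share of 31-base words that a member had in common with another protein-coding gene was 0% for Klf2, Klf6 and Klf9 and at most 1.22%, for Klf3. The translated zinc finger blocks, 81 residues long, were identical at 60.5 to 95.1% of positions over the 45 pairs of members, with 45 positions the same in all 10. The most similar pairs were Klf6 with Klf7 (95.1%) and Klf2 with Klf4 (91.4%), and Klf10 and Klf11 shared 86.4%. The log2 fold changes under flow in these 3 pairs were 0.87 and 0.39, 0.25 and 0.54, and 1.07 and -0.09. No test between genes was run.

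RefSeq promoters (GRCm38.p6, 250 bases before to 50 after the start) were matched for 8 of the 10 members, leaving Klf5 and Klf10. The 250 bases before the start held 59.2 to 78.4% G and C, against a median of 52.4% over the same stretch of 32851 promoters. The GC box GGGCGG, searched on both strands of the whole window, was present in 7 of 8 member promoters and in 35.7% of all promoters. The CACCC-like pattern CCNCNCCC, which KLF proteins themselves can bind and which overlaps the GC box where both occur in GGGGGCGG, was present in the same 7 and in 49.5% of all. Klf9 was the promoter without either, and held the 1 AP-1 match (TGANTCA, 7.81% of all promoters). The 4 windows before the start are printed 5′ to 3′ on the strand of the gene, with matches to GGGCGG, CCNCNCCC, the MEF2 site or TGANTCA in capitals. They show the called gene Klf6, the pair Klf4 and Klf2 whose zinc fingers are alike, and Klf9, whose change was the smallest of the 10.
Klf6 (chr13:5861239-5861488, + strand): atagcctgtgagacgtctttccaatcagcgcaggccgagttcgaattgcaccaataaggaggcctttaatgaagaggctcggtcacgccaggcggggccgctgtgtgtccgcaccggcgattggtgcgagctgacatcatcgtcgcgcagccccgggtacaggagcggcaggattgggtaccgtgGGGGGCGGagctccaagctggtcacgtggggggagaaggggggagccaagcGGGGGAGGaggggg
Klf4 (chr4:55532476-55532725, - strand): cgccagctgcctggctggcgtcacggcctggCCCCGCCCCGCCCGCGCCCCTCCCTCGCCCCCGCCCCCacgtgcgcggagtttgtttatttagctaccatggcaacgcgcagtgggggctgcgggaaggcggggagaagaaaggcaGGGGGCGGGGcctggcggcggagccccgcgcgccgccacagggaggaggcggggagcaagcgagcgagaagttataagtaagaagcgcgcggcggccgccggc
Klf2 (chr8:72318812-72319061, + strand): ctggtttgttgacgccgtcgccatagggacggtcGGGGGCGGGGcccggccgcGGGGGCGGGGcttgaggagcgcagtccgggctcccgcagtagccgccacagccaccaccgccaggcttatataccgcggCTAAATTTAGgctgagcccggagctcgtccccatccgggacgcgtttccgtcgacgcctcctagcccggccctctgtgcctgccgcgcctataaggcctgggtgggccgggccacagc
Klf9 (chr19:23140976-23141225, + strand): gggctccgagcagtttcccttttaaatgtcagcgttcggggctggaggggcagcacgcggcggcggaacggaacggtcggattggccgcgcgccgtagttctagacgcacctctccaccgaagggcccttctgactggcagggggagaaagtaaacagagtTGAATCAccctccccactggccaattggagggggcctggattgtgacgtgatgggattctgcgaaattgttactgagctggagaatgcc

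Klf6 held 1 GC box and 2 CCNCNCCC matches before its start, and Klf4 held 4 and 9, most of them in a run of overlapping matches 182 to 219 bases before the start. Klf2 held 2 GC boxes and 4 CCNCNCCC matches and, 109 to 118 bases before its start, the only MEF2 site among the 8 members, which 3.19% of all promoters have. MEF2 factors act on this gene in endothelium downstream of ERK5. No member window held the CArG box bound by serum response factor (1.63% of all promoters), the full cAMP response element TGACGTCA (1.79%) or the SMAD palindrome GTCTAGAC (0.213%). A match is a description of letters in the window, and a missing match speaks only for these letters in this window.

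Genes around the factors were read from lists of known regulators, partners and targets. Of 11 TGF-beta genes around Klf10 and Klf11, 1 was called higher without the block, against 0.105% of all genes, and 4 with it, against 0.597%, and none lower. The inhibitory Smad7 was at 61.4 ± 20.9 TPM under flow and 24.5 ± 3.89 in static cells (SD, n = 6 each, log2 fold change 1.23, adjusted p 0.0257). Id1, a BMP and TGF-beta target, rose from 42.3 ± 10.6 to 111 ± 54.5 TPM and the corepressor Tgif1 from 46.7 ± 3.27 to 88.2 ± 33.2 TPM, both called with the block (adjusted p 0.00374 and 0.0218). The SMAD corepressor Skil, called with the block as well (adjusted p 0.0117), rose from 13.3 ± 3.00 to 21.8 ± 8.38 TPM. Without flow replicate 6, Smad7 was called in both fits (adjusted p 0.0426 without the block) and Id1 with the block (0.0136), while Tgif1 (adjusted p 0.0559 with the block) and Skil (0.0418, under 1.5-fold) were not. The median of the list was 0.08, against -0.03 over all genes.

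No gene upstream of Klf2 and Klf4 was called. Of 13 tested genes of the MEKK-MEK5-ERK5-MEF2 and CCM list, limma called 0 and 0 had an unadjusted p under 0.05 in either fit, and the largest changes were those of Hdac5 (-0.19), a repressor of MEF2, and Map3k2 (0.13), a kinase upstream of MEK5. Of genes that KLF2 and KLF4 raise in endothelium, 3 of 6 were expressed enough to test and 0 were called, with Ptgds at -0.38 and thrombomodulin (Thbd) at 0.19, and 1 was lower at an unadjusted p under 0.05 with the block. Of genes that they lower in endothelium, 3 of 5 were tested, Edn1, Ccl2 and Vcam1, and all 3 had higher means under flow, with a median log2 fold change of 1.13. Without flow replicate 6 the changes of Ccl2 and Vcam1 were 0.81 and 0.15, not called. At an unadjusted p under 0.05, 2 of the 3 were higher in both fits, against 2.05% of genes without the block and 3.94% with it. Edn1 was called in both fits, against 0.105% and 0.597% of genes called higher. This gene, which encodes the vasoconstrictor endothelin 1, was raised by flow from 2.02 ± 0.525 to 6.27 ± 1.49 TPM (SD, n = 6 each, log2 fold change 1.26, adjusted p 0.00584), and remained called without flow replicate 6 (adjusted p 0.0114).

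The remaining lists held no called gene in either fit. Among 10 coregulators bound by KLF proteins, 1 was lower at an unadjusted p under 0.05, the Sin3 complex subunit Sap30 (-0.33), and Kat2b had a change of 0.15. Among 5 ubiquitin ligases of KLF proteins the largest changes were those of Btrc (-0.11) and Smurf2 (0.10). Among 6 cell cycle and growth genes under KLF control, the cell cycle inhibitor Cdkn1a was 0.32 higher (adjusted p 0.680) and Cdkn1b 0.26 lower on the log2 scale (log2 fold change -0.26). Among 6 tested hormone-related genes around Klf9, the glucocorticoid targets Tsc22d3 and Per1 were at -0.37 and 0.37. Of 16 other Klf and Sp genes 7 were tested, and Sp8 (0.74, adjusted p 0.817) and Klf15 (-0.35) had the largest changes. At an unadjusted p under 0.05, 2 of the 7 were higher in each fit, against 2.05% of all genes without the block and 3.94% with it. With the block 1 was lower, against 7.17%.

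The genes whose pair-by-pair change under flow was nearest to that of Klf6 and Klf10 were listed by the root mean square difference over the 6 pairs. Nearest to Klf6 were Tgif1 (0.122), Srf (0.140), which encodes serum response factor, and the mitochondrial carrier gene Slc25a25 (0.154). Nearest to Klf10 were the AP-1 gene Fosl2 (0.204), Sox9 (0.233) and the growth arrest gene Gadd45g (0.268). The difference between Klf6 and Klf10 was 0.340, which placed Klf6 at rank 12 among the neighbours of Klf10 and Klf10 at rank 43 among those of Klf6. Over the 5 pairs without pair 6 the order changed, with Arid5b (0.0814) nearest to Klf6 and Sox9 (0.179) nearest to Klf10, and Tgif1 at rank 5 and Fosl2 at rank 3 in their lists. Arid5b was chosen after its values were seen.

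Silencing of Ift88 addressed whether the levels of these factors in transfected cells change when the ciliary gene is reduced. Ift88 itself was at 4.21, 4.08, 4.15 and 4.12 TPM in the control siRNA libraries and at 1.71, 1.27, 1.28 and 0.917 TPM in the Ift88 siRNA libraries (log2 fold change -1.17, adjusted p 0.00212), so transcript was reduced in each and did not disappear. None of the 10 factors was called, against 0.152% of 11209 genes called higher and 0.0714% called lower. At an unadjusted p under 0.05, 1 of the 10 members was higher, a share close to the 9.02% of all genes. The median log2 fold change was 0.11 over the members and 0.02 over all genes.

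**Figure D4:**
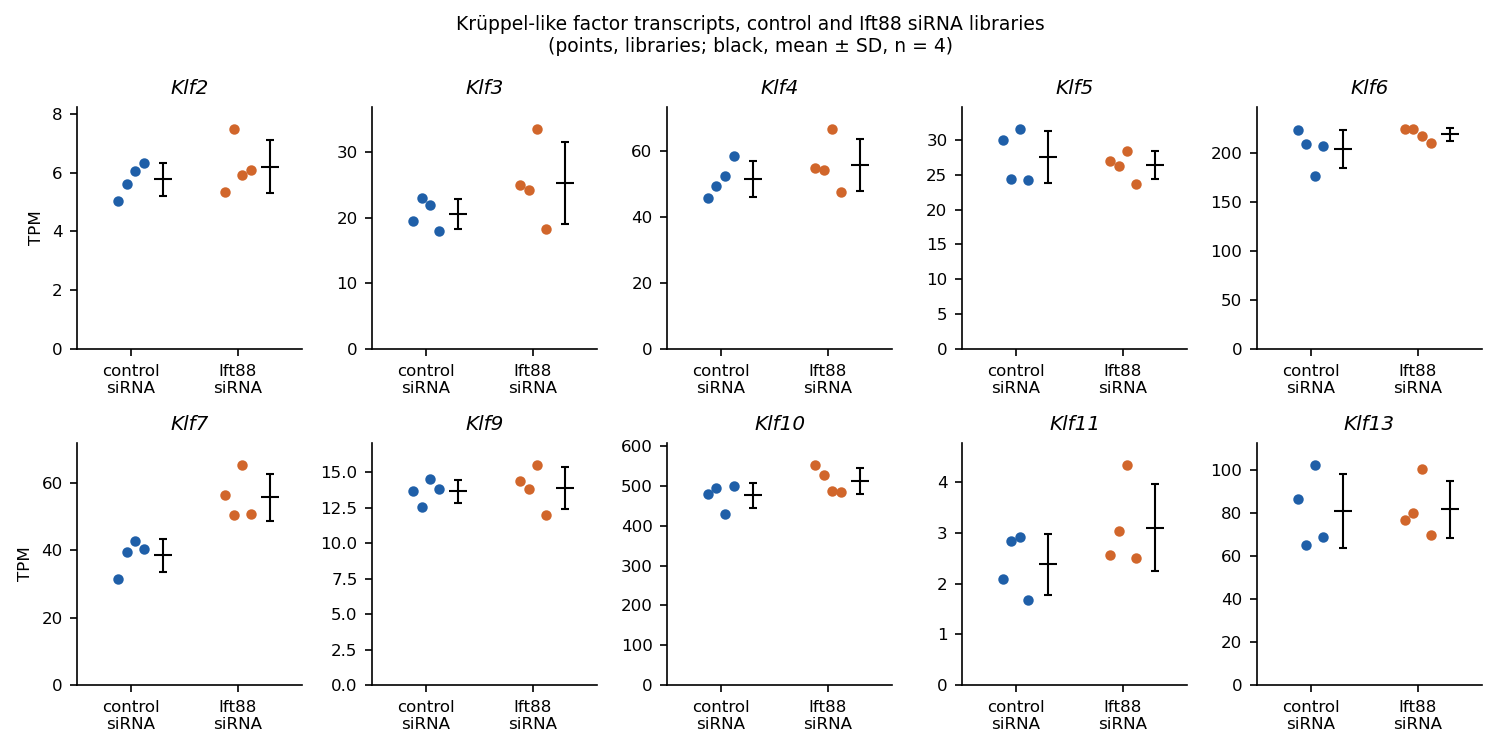
TPM of each Krüppel-like factor (vertical axis, from 0) in the 4 control siRNA and 4 Ift88 siRNA libraries, with mean ± SD in black. The 4 Klf7 values with Ift88 siRNA lie above the 4 control values, and the ranges of the other 9 factors overlap.

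That member was Klf7, which was not called. It was at 31.5, 39.4, 42.8 and 40.4 TPM with control siRNA and at 56.4, 50.5, 65.3 and 50.9 TPM with Ift88 siRNA. The 2 groups did not overlap, which held for 5.79% of all genes tested in the higher direction. Means were 38.5 ± 4.89 and 55.8 ± 6.92 TPM (SD, n = 4 each), and the log2 fold change of 0.52 (SE 0.11, 95% interval 0.30 to 0.75) had an adjusted p of 0.0485, as 0.455% of genes did in the higher direction, but was under 1.5-fold. When any 1 library was left out the adjusted p lay between 0.0538 and 0.139, with median-of-ratios scaling it was 0.0595 and without the filter on low genes 0.166. It was 0.0243 with the replicate block, 0.0253 with library weights, 0.0444 with the filter at 5 TPM and 0.0497 with a pseudocount of 0.1. In each of these fits the change stayed under 1.5-fold.

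Klf10 and Klf6, called under flow with the block, were not called with Ift88 siRNA. Klf10 was at 481, 496, 430.3 and 499 TPM with control siRNA and at 552, 527, 487 and 484 TPM with Ift88 siRNA, overlapping groups with a log2 fold change of 0.11 (95% interval -0.04 to 0.25). Klf6 was at 224, 209.6, 177 and 207 TPM with control siRNA and at 225, 225, 217 and 211 TPM with Ift88 siRNA, again 0.11 (-0.05 to 0.26). Changes of 1.5-fold were outside both intervals. No siRNA library without flow was analysed here, so the flow change itself was not measured in cells with reduced Ift88.

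Klf4 was at 51.3 ± 5.37 TPM with control siRNA and 55.7 ± 7.96 with Ift88 siRNA, and Klf5 at 27.5 ± 3.77 and 26.4 ± 2.00 TPM (SD, n = 4 each). Klf2, at 5.77 ± 0.563 and 6.21 ± 0.907 TPM, and Klf9, at 13.6 ± 0.827 and 13.9 ± 1.48 TPM, had log2 fold changes of 0.09 and 0.02. Klf13 had wide ranges in both groups, 65.2 to 102 and 69.6 to 100.2 TPM, and a change of 0.03. Klf3 (0.26, interval -0.06 to 0.58) and Klf11 (0.28, -0.10 to 0.65) had higher means in the knockdown and were higher in 4 of 4 same-numbered libraries, as were Klf6 and Klf7, but 15.9% of all genes were.

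Over the 9 lists of regulators, partners and targets limma called 0 genes with Ift88 siRNA. At an unadjusted p under 0.05 without the block, the ERK5 gene Mapk7 (0.27) and the glucocorticoid target Tsc22d3 (0.39) were higher. So were the endothelial KLF targets Nos3 (0.42) and Ptgds (0.27), and no other list gene was. Of all genes, 9.02% were higher by that rule. Nos3 was near the filter, at 0.796 ± 0.303 TPM with control siRNA (SD, n = 4). The chemokine gene Ccl2 (-0.24), the cell cycle inhibitor Cdkn1b (-0.29), the growth factor gene Pdgfa (-0.20) and the glucocorticoid receptor gene Nr3c1 (-0.20) had the largest negative changes of their lists. None of the 11 TGF-beta genes had an unadjusted p under 0.05 without the block and 2 were lower with it, and Tgfb1 (-0.33) and Smad4 (-0.19) had the largest changes.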

How the data were processed

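RNA-seq was measured in 20 mouse DC2 libraries, 6 flow, 6 static, 4 Ift88 siRNA and 4 control siRNA, made with a directional kit. According to the methods, the authors used Trimmomatic for trimming, kallisto for quantification against mouse transcripts of Ensembl, and tximport for gene totals. The submitters' processing notes name fastp 0.20.0, FastQC 0.11.8, MultiQC 1.8 and kallisto 0.46.2. The authors deposited TPM, 1 table per experiment, for 21509 protein-coding genes, so a gene's value depends on all others in its library. The tables were made separately and were tested separately.

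The deposited TPM were put on the log2(TPM + 1) scale and fitted in limma 3.58.1 (R 4.3.3, intensity trend). Genes needed a table mean of 1 TPM or more, and p-values were adjusted by Benjamini-Hochberg over all genes fitted. All 10 members passed this filter in both tables. A call needed an adjusted p under 0.05 and over 1.5-fold. The added 1 makes fold changes of low genes too small. A second fit held the replicate number as a block. Same-numbered flow and static libraries deviated together (correlations of deviations from the group means over genes 0.294, 0.463, 0.425, 0.468, 0.662 and 0.600, with flow replicate 3 closest to static replicate 1), so the block is given where it changes a call. An interaction term compared the flow effect between replicates 4 to 6 and 1 to 3. The fits were tested on simulated data. Alternatives were the filter, the pseudocount, median-of-ratios scaling, library weights, the fold threshold, leaving out each library, the label of flow replicate 6, each replicate set alone, and, chosen after seeing the data, the block without pair 2 or pair 6 and replicates 4 to 6 without flow replicate 6.

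Members and lists were chosen with earlier results of these data known. All members were named, Ift88, up to 4 called genes of each list or else the 2 with the largest change, and the 3 nearest genes of each called member. From the TGF-beta list 1 gene is not reported here and is left out of its counts. Positions are from GENCODE M21 and promoters from RefSeq. Figures were drawn with Python 3.11.15 and matplotlib 3.10.9.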

Additional observations from a re-analysis of the deposited data

Results flagged for a closer look

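Dixon's test at the 95% level was applied to each group of each member, 40 groups in all, and marked 3 libraries as lying far from the rest of their group, where chance alone marks about 5% of groups. Klf2 in flow replicate 4 was at 60.1 TPM, above the other 5 flow libraries at 28.6 to 40.3 TPM. Klf6 in static replicate 4 was at 76.6 TPM, above the other 5 static libraries at 62.9 to 66.7 TPM. Klf11 in flow replicate 2 was at 7.94 TPM, above the other 5 flow libraries at 4.80 to 5.44 TPM, and this was the pair in which Klf5 and Klf7 were lower under flow. Without flow replicate 2 the log2 fold change of Klf11 was -0.18 in place of -0.09 and was not called (adjusted p 0.398). Without flow replicate 4 that of Klf2 was 0.12 in place of 0.25.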

How the results depend on the processing

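Of the log2 values of the members recomputed under each alternative, 232 of 250 under flow, 141 of 149 with siRNA and 108 of 120 for the difference between replicate sets kept their direction and their side of the threshold. Another 11, 1 and 1 became calls, and 7, 7 and 11, all of uncalled values near 0, changed sign. Under flow, 12 genes and 0 members were called. Genes numbered 2 without a filter, 28 with median-of-ratios scaling, 86 with library weights, 68 with the replicate block, 5 in replicates 1 to 3 alone, 56 in replicates 4 to 6 alone (30 without flow replicate 6), 193 with the block without pair 2 and 41 without pair 6. With flow replicate 6 as static limma called 0 genes (181 at an unadjusted p under 0.05). Leaving out 1 library gave 5 (without flow replicate 4) to 87 genes (without flow replicate 2). Members numbered 2 with weights and with the block (Klf6, Klf10), 1 in replicates 4 to 6 alone with or without flow replicate 6 (Klf6), 3 with the block without pair 2 (Klf4, Klf6, Klf10), and 0 to 2 when 1 library was left out (Klf5 and Klf6 without flow replicate 2).

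With siRNA, 25 genes were called, 6 without a filter, 48 with weights, 44 with the replicate block, 71 without the fold threshold, which adds 1 member (Klf7), and 11 to 23 when 1 library was left out (11 without replicate 1 of either group). Same-numbered siRNA libraries correlated at 0.0464, 0.00276, 0.259 and 0.176, lower than under flow, and only replicates 3 and 4 matched their own number best. The block still raised the genes at an unadjusted p under 0.05 from 1561 to 2038. Whether these libraries share more than a number was not tested. The block gave no member a call there.

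The flow effect differed between replicate sets for 18 genes, 0 without a filter, 8 with scaling, 33 with weights, 0 without the replicate block (238 at an unadjusted p under 0.05), and 0 (without replicate 3) to 49 (without replicate 4) when a pair was left out, with 0 to 1 members (Klf10 without replicate 4). Scaling moved a member's change by at most 0.0303 under flow and 0.0230 with siRNA, and a difference between replicate sets by at most 0.0687. The causes were not tested. Depth is unknown, so counting error could not be set beside the low members Klf2 and Klf11 of the siRNA experiment.

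The changed signs were as follows. Under flow, Klf9 was at -0.090 with weights and -0.025 to 0.056 when 1 library was left out, and Klf3 at -0.0017 with flow replicate 6 as static and -0.040 to 0.12 when 1 library was left out. With siRNA, Klf9 was at -0.00036 with scaling, and leaving out 1 library gave -0.030 to 0.087 for Klf9, -0.11 to 0.011 for Klf5 and -0.075 to 0.15 for Klf13. For the difference between replicate sets, Klf2 was at 0.060 with scaling and 0.15 with weights and Klf11 at 0.019 with weights. Leaving out 1 pair gave -0.27 to 0.22 for Klf2, -0.0058 to 0.23 for Klf3, -0.13 to 0.35 for Klf7, -0.085 to 0.067 for Klf9 and -0.24 to 0.042 for Klf11.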

Other observations

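The levels of several members differed between the experiments by more than between the groups within either. Klf10 was at 39.9 to 51.0 TPM in static and 59.1 to 192 TPM in flow libraries, but at 430.3 to 499 TPM with control siRNA, where it made up 49.3 ± 2.39% of the Klf pool (SD, n = 4). Klf13 was at 8.64 to 11.6 TPM over the 12 flow and static libraries and at 65.2 to 102 TPM with control siRNA. Klf7 was at 6.999 to 16.8 and at 31.5 to 42.8 TPM. For Klf6 the ranges met, at 62.9 to 184 and 177 to 224 TPM. Klf2 and Klf3 were lower in the siRNA experiment, at 5.05 to 6.34 TPM for Klf2 against 26.4 to 60.1 TPM in the flow experiment, and at 17.9 to 23.0 TPM for Klf3 against 45.2 to 87.5 TPM. The tables were normalized separately, and transfection, experiment and table cannot be told apart, so these levels are set side by side with no test.

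Static libraries also differed by replicate set. Klf10 was at 41.0 ± 1.74 TPM in static replicates 1 to 3 and at 50.4 ± 0.630 TPM in static replicates 4 to 6 (SD, n = 3 each), Klf2 at 27.7 ± 1.41 and 34.9 ± 2.15 TPM, and Klf3 at 54.8 ± 8.75 and 71.0 ± 9.66 TPM. Klf6, at 65.6 ± 1.00 and 67.9 ± 7.53 TPM, and Klf9, at 10.97 ± 1.15 and 10.9 ± 0.230 TPM, had nearly the same mean in both sets. No test was run on these sets, which the labels do not name.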
